A study of Drosophila melanogaster with 12 samples.

Results

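The comparison set a whole day of constant darkness (DD) against the whole light/dark day (LD) that came before it, in heads of y w; tim01 Drosophila melanogaster. It used all 12 arrays of the series, 6 from the DD day and 6 from the LD day, and 13966 of the 14010 probe sets of the Affymetrix DrosGenome1 array, since control probe sets were left out. The 6 DD samples (CT2, CT6, CT10, CT14, CT18, CT22) were kept in darkness throughout, and CT counts hours from the time at which the lights would have come on. The 6 LD samples (ZT2, ZT6, ZT10, ZT14, ZT18, ZT22) were taken under 12 h of light and 12 h of darkness, and ZT counts hours from lights on. Both groups carried the same mutations, y, w and tim01, had been held in the light/dark cycle for 3 days, and consisted of about 100 to 200 heads per sample, separated on sieves from frozen, broken flies. Sex and age were not given in the sources used here, and no flies with wild-type timeless were analysed here.

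In Drosophila, timeless encodes a partner of the repressor PERIOD, and flies without it lack the molecular oscillation of the circadian clock, so light is a main daily signal left to the tissue. The compound eye makes up much of the head. Its photoreceptors open TRP and TRPL channels through a phospholipase C cascade when light strikes rhodopsin, shut the cascade off with arrestins, and signal to the brain with histamine, which glia convert to carcinine and photoreceptors recover from it.

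Every DD array was paired with the LD array of the same clock hour, and each difference below is DD minus LD on the log2 scale of the RMA value, averaged over the 6 pairs, with the standard error (SE) of the limma fit that had clock hour as a block. There was 1 array per time, so the 6 pairs served as the replication and no single time had an error of its own. The labels do not call the arrays replicates, and p-values cover the spread of these 12 arrays and nothing beyond it. As the LD day was collected first, lighting, day of collection and fly age cannot be told apart.

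The arrays of both days were much alike, and the eye genes Arr1, Arr2 and trpl lay above the array median on all 12. Array medians lay between 4.06 and 4.10, except at CT2, where the median was 3.999. The median difference over all probe sets was -0.02, and differences at all 6 hours ran mostly downward. Of the 13966 probe sets, 204 (1.46%) were higher in DD at all 6 hours and 660 (4.73%) were lower at all 6. That split depended on the scaling, being 384 and 366 after the arrays were centred on their medians, and 310 and 442 after quantile normalization was run again. Groups that did not overlap at all were rarer. The 6 DD values lay above the 6 LD values for 14 probe sets (0.1%) and below them for 70 (0.501%).

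A single probe set passed limma at an adjusted p under 0.05, which is 0.00716% of those tested, and it was lower in DD. None passed in the direction of higher values in DD (0%). At an unadjusted p under 0.05 there were 442 higher (3.16%) and 1035 lower (7.41%), and these shares are the background against which the counts below are read. Over the alternative settings and the fits without 1 hour, 0 to 2 probe sets passed, all of them lower in DD.

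The probe set that passed was 151602_at, for which the annotation used here gives no gene. Its lowest, median and highest values were 2.87, 3.09 and 3.27 in DD, against 3.50, 3.72 and 3.80 in LD. All 6 DD values lay under all 6 LD values. The difference was -0.60 (SE 0.064, limma adjusted p = 0.0229), a fold of 0.659 in DD over LD, and it ranged from -0.41 at hour 22 to -0.89 at hour 14. It was -0.53 over hours 2, 6 and 10, lit on the LD day, and -0.67 over hours 14, 18 and 22, dark on both days. The call was lost without both arrays of hour 2 (adjusted p = 0.104), of hour 6 (adjusted p = 0.194) or of hour 18 (adjusted p = 0.186), and with quantile normalization run again (adjusted p = 0.053), while the difference kept between -0.64 and -0.54 in these fits and the other fits without an hour. It was also lost with a body-tissue score, described further on, in the model, at -0.51 (adjusted p = 0.253), and with a linear trend over the 2 days in place of the hours, at -0.42 (adjusted p = 0.41). That trend overlaps with the order of the days, and the SE with it was 0.131. The score overlaps in part with the day too, being higher in DD from hour 10 on and lower at hours 2 and 6. The SE with the score was 0.074.

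**Figure D1:**
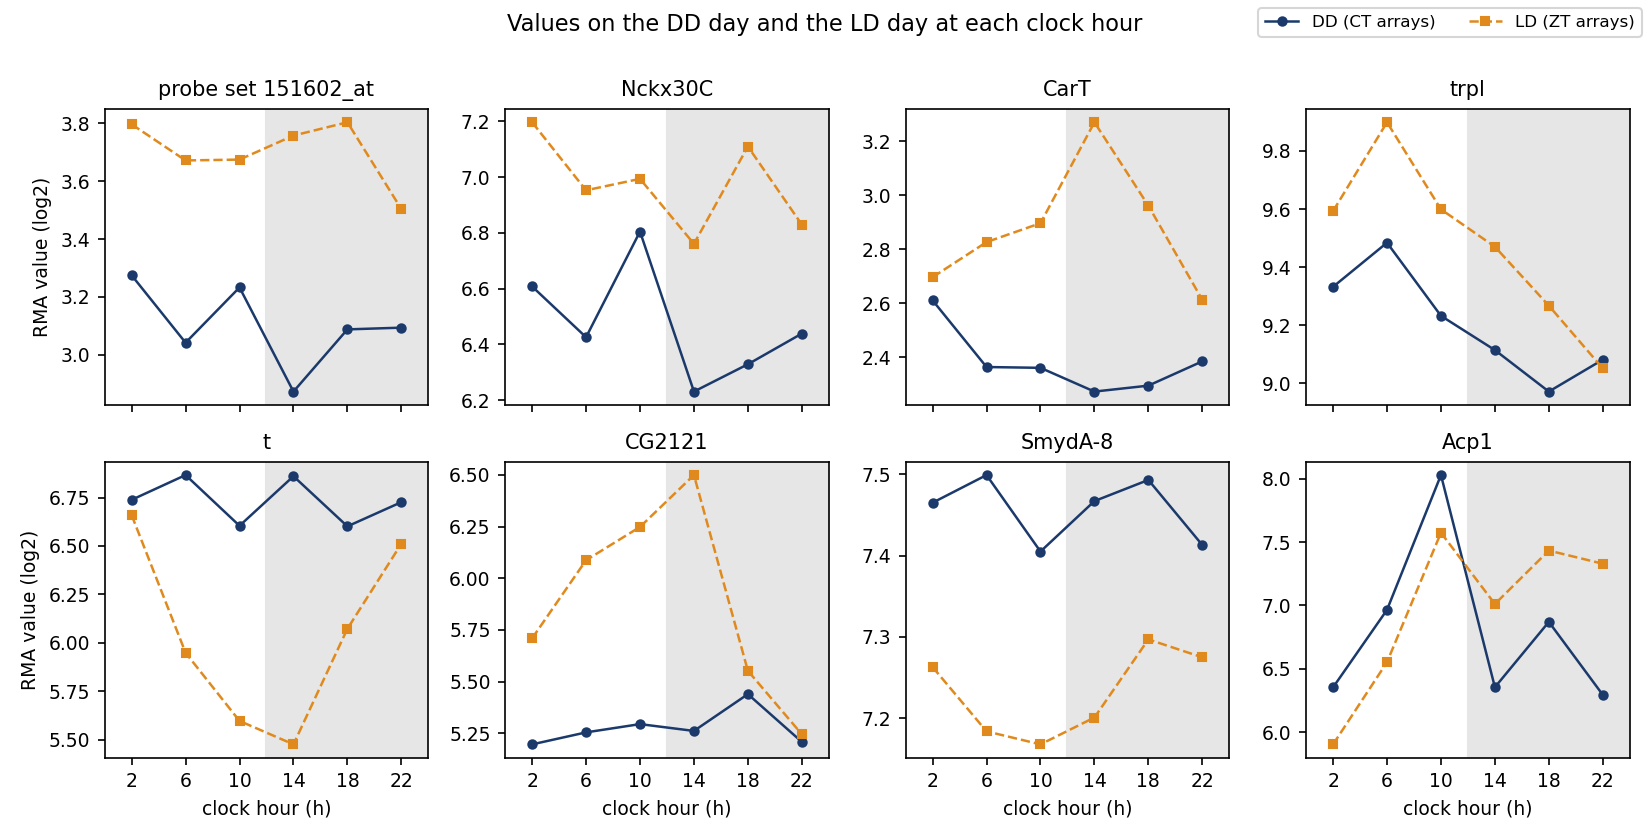
RMA values (log2, vertical axes) against clock hour (horizontal axes) for 7 genes and probe set 151602_at, with blue circles for the 6 DD arrays and orange squares for the 6 LD arrays; grey marks the dark part of the LD day. The DD values of 151602_at all lie below the LD values, t stays between 6.60 and 6.87 in DD and dips to 5.48 in LD, and the curves of Acp1 cross between hours 10 and 14.

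Among genes of phototransduction, Nckx30C came nearest to the threshold. It encodes a potassium-dependent sodium/calcium exchanger, which removes calcium from cells. Its values were 6.23, 6.43 and 6.80 in DD (lowest, median and highest), against 6.76, 6.97 and 7.20 in LD. It was lower in DD at all 6 hours, with only the CT10 array reaching into the LD range. The difference was -0.50 (SE 0.068, adjusted p = 0.112), or -0.48 with the body-tissue score in the model, and -0.22 (adjusted p = 0.777) with the linear trend. A second probe set of the gene, which had lower values, differed by -0.04, so the 2 probe sets of Nckx30C disagreed. The first one passed without the arrays of hour 10 (adjusted p = 0.0417) and with a trended and robust prior (adjusted p = 0.0171).

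The gene trpl, which encodes the TRPL channel of the light response, was lower in DD at 5 of 6 hours. It had 8.97, 9.17 and 9.48 in DD, against 9.05, 9.53 and 9.90 in LD, with overlapping ranges and a like profile over the day. The difference was -0.28 (SE 0.060, adjusted p = 0.299), and its sign turned with a linear trend over the 2 days in place of the hours (0.38, SE 0.147). Arr1, an arrestin that binds activated rhodopsin, was lower in DD at all 6 hours, at 10.52, 10.65 and 10.77 in DD against 10.67, 10.85 and 11.01 in LD. Its difference was -0.19 (SE 0.050, adjusted p = 0.313), while that of the other arrestin, Arr2, was 0.04 (SE 0.043). Against this, inaD, the scaffold that holds the cascade together, was higher in DD at all 6 hours, by 0.22 (SE 0.060, adjusted p = 0.326). Gbeta76C, the eye's G protein beta subunit, differed by 0.27 (SE 0.091, adjusted p = 0.397).

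Of the 28 phototransduction and rhodopsin shutoff genes measured, none passed the threshold. At an unadjusted p under 0.05, 2 were higher in DD and 5 were lower, the others of the 5 being retinin (-0.36), a protein of the corneal lens, and the photoreceptor calcium-binding gene Cpn (-0.17). The remaining 21, which include trp and the rdg genes, lay between -0.18 and 0.12 with a median of -0.02, which is also the median of all genes. Arr2, inaD, Gbeta76C, retinin and Cpn were named after their values were seen.

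Genes of histamine recycling held differences of both signs. The largest in size was that of t (tan), which encodes the hydrolase that splits carcinine back into histamine and beta-alanine. Its values were 6.60, 6.73 and 6.87 in DD, against 5.48, 6.01 and 6.66 in LD, so the ranges overlapped. The DD values spanned 0.27 and the LD values 1.18. In DD they were level, and in LD they were high at hour 2, lowest at hour 14 and high again at hour 22. The difference was 0.69 (SE 0.145, adjusted p = 0.299), a fold of 1.61, positive at all 6 hours, from 0.08 at hour 2 to 1.39 at hour 14. With the body-tissue score in the model it was 0.47 (adjusted p = 0.544).

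CarT, the photoreceptor transporter that takes up carcinine, had the opposite sign. It had 2.27, 2.36 and 2.61 in DD, against 2.61, 2.86 and 3.27 in LD. The groups did not overlap, but only just, as the highest DD and the lowest LD value both round to 2.61. The difference was -0.50 (SE 0.098, adjusted p = 0.299), largest at hour 14 (-0.998), and -0.28 with the body-tissue score in the model. Its mean was under the lower quartiles of all arrays, where values are close to background, and its other probe set differed by -0.16. Balat, the beta-alanine transporter of the same cycle, differed by -0.17 (SE 0.064, adjusted p = 0.418). None of the 14 genes for chromophore and histamine recycling passed, 1 was higher and 3 were lower at an unadjusted p under 0.05, and the list's median was 0.03 over hours 2, 6 and 10 and -0.16 over hours 14, 18 and 22.

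The gene CG2121, from the list of clock output and light response candidates, had a profile that ran opposite to that of t. Its values were 5.20, 5.26 and 5.44 in DD, against 5.25, 5.90 and 6.50 in LD. The DD values were level, while the LD values climbed from hour 2 to their highest at hour 14 and were back within the DD range at hour 22. The difference was -0.61 (SE 0.139, adjusted p = 0.299), lower in DD at all 6 hours. Its other probe set, of lower values, differed by -0.09 (SE 0.072) and was lower in DD at 4 of 6 hours. That probe set differed by 0.09 over hours 14, 18 and 22, and its LD values were highest at hour 6 (4.48). The 2 probe sets of CG2121 thus disagreed in size, in profile and, over the late hours, in sign. It was named after its values were seen. Cyp4d21, a cytochrome P450 gene of the same list, differed by -0.27 (SE 0.059, adjusted p = 0.299), and the whole list of 28 had 1 gene higher and 6 lower at an unadjusted p under 0.05, with a median of -0.01.

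**Figure D2:**
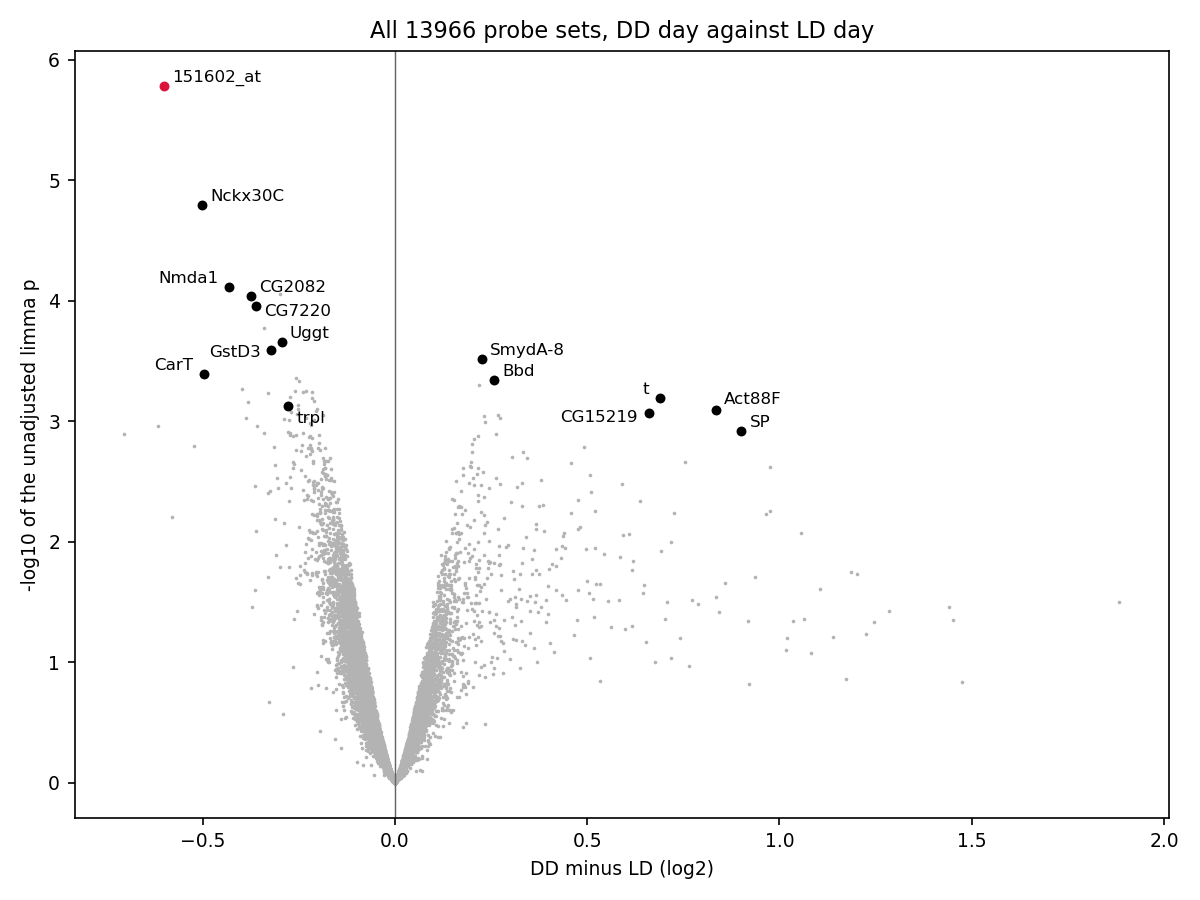
Each point is 1 of the 13966 probe sets, placed by DD minus LD (log2, horizontal axis) and by -log10 of its unadjusted limma p (vertical axis). The red point, 151602_at, is the only one that passed after adjustment; black points are other named genes, and 71 points lie above 0.5 on the horizontal axis, against 6 below -0.5.

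No core clock gene came near the threshold. The values of per, which encodes the repressor, were 4.82, 4.96 and 5.13 in DD, against 4.81, 5.12 and 5.30 in LD, a difference of -0.13 (SE 0.065, adjusted p = 0.498). For tim, whose function the mutation removes, the difference was -0.05 (SE 0.062), for the photoreceptor gene cry it was -0.03 (SE 0.058), and for the activator gene Clk, a gene of low values, it was 0.09 (SE 0.065). Other probe sets of tim were at -0.089 (SE 0.0595) and, with a mean under the lower quartiles of all arrays, at 0.1015 (SE 0.0785). All 16 clock genes measured lay between -0.13 and 0.14. None passed at an adjusted p under 0.05, and none had an unadjusted p under 0.05, against 10.6% of all probe sets. The pigmentation gene y, also mutant in these flies, differed by -0.05 (SE 0.051).

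The other genes with the smallest p-values in the downward direction came from several functions. Nmda1, a membrane protein of the family that includes the Bax inhibitor, had 5.53, 5.97 and 6.31 in DD, against 6.04, 6.34 and 6.72 in LD. It was lower in DD at all 6 hours although the ranges overlapped, and the difference was -0.43 (SE 0.070, adjusted p = 0.254). Uggt, which reglucosylates misfolded glycoproteins in the endoplasmic reticulum, had 4.03, 4.14 and 4.19 in DD, against 4.26, 4.45 and 4.55 in LD. Its groups did not overlap, and the difference was -0.29 (SE 0.054, adjusted p = 0.299). CG2082, CG7220 and CG10126, for which no role is given here, differed by -0.37, -0.36 and -0.34 (adjusted p = 0.254, 0.256 and 0.299). Itpr, the inositol trisphosphate receptor gene, and CG13800 were at -0.26 and -0.25, with means under the lower quartiles of all arrays.

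Of the 10 genes with the smallest p-values in the upward direction, 7 differed by 0.22 to 0.27. SmydA-8, which encodes a SET and MYND domain protein, had 7.41, 7.47 and 7.50 in DD, against 7.17, 7.23 and 7.30 in LD. It was among the 14 probe sets whose DD values all lay above the LD values, and the difference was 0.23 (SE 0.043, adjusted p = 0.299). Tsp42Ej, a tetraspanin, differed by 0.22 (SE 0.045) and was higher in DD at all 6 hours. Bbd at 0.26, RpL24-like at 0.23, CG16721 at 0.23, CG17470 at 0.27 and Acsf3 at 0.27 were also higher in DD at all 6 hours, each with an adjusted p of 0.299. The values of Acsf3 were low. The other genes of the 10 had larger differences: t, described above, and Act88F and CG15219, described further on.

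Most of the chaperone genes, 20 of 25, had negative differences, beside 6763 of 10843 over all genes. Of the 25 heat shock and chaperone genes, none passed, none was higher and 7 were lower at an unadjusted p under 0.05, against 7.41% of all probe sets. The median of the list was -0.09, with -0.17 over hours 2, 6 and 10 and 0.00 over hours 14, 18 and 22, a contrast not tested for the list. By hour, the medians of the early pairs were -0.26, -0.17 and -0.02, so hour 10 was near the median over all genes. The CT2 array, whose median was the lowest of all, belongs to the pair with the largest shift, and without hour 2 the list was at -0.05.

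The chaperonin CCT, a ring that folds actin and tubulin, contributed 4 of those 7 genes. CCT5 had 4.79, 4.997 and 5.11 in DD, against 5.12, 5.18 and 5.39 in LD, and CCT1 had 5.93, 6.02 and 6.11 in DD, against 6.17, 6.23 and 6.39 in LD. Neither gene's groups overlapped. The differences were -0.25 (SE 0.056) for CCT5 and -0.23 (SE 0.051) for CCT1, each with an adjusted p of 0.299. CCT2 differed by -0.31 (adjusted p = 0.354), but its other probe set by -0.02, and CCT8 by -0.23 (adjusted p = 0.402). The 8 CCT subunits measured had a median of -0.16, and the highest of them was at 0.04. The CCT grouping was chosen after the values were seen.

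No gene of the neural and glial lists passed. Of 16 genes that respond to neuronal activity, 4 were lower and none higher at an unadjusted p under 0.05, and the median was -0.08. The transcription factor gene sr had 4.69, 5.03 and 5.06 in DD, against 5.14, 5.17 and 5.39 in LD. Its groups did not overlap, but at hours 6 to 22 the pairs differed by only -0.16 to -0.09, against -0.70 at hour 2. The mean difference was -0.23 (SE 0.077, adjusted p = 0.398), or -0.13 without hour 2. CG14186 of that list differed by -0.31 (SE 0.079, adjusted p = 0.313). Gli, a septate junction protein of glia, had 5.27, 5.36 and 5.53 in DD, against 5.53, 5.62 and 5.78 in LD. Its groups did not overlap, but only just, and the difference was -0.26 (SE 0.054, adjusted p = 0.299). The lists of neurons, synaptic vesicle release, glia and ion channels had medians of -0.03, -0.03, -0.04 and -0.06, against -0.02 over all genes. At an unadjusted p under 0.05, the neuron list of 18 had 1 gene higher and none lower, and the other 3 lists had none higher and 3 lower each. The neuron gene was dlg1, a scaffold of synapses and cell junctions, at 0.23 (SE 0.096, adjusted p = 0.449), while its other probe set, of lower values, was at -0.10. At hour 2 alone the medians of the neuron, synaptic vesicle release, glia and ion channel lists were between -0.25 and -0.14. Over all genes the hour 2 pair was at -0.07.

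Among detoxification genes, the GstD cluster of glutathione transferases stood mostly below 0. GstD3 had 4.85, 4.99 and 5.09 in DD, against 5.11, 5.33 and 5.50 in LD, and the groups did not overlap. The difference was -0.32 (SE 0.060, adjusted p = 0.299). GstD10 differed by -0.33 (SE 0.088, adjusted p = 0.317), and 10 of the 11 GstD genes had negative differences, with a median of -0.10. Over all genes, 6763 of 10843 were negative. The 14 GstE genes had 7 of each sign and a median of 0.00. Of the 33 Ugt genes 22 were negative, with a median of -0.03. GstD, GstE and Ugt genes shared a list and were split only here. The GstD genes lie close together and are similar in sequence, so their probe sets may share signal. Of all 67 glutathione and glucuronosyl transferase genes, 2 were higher and 13 lower at an unadjusted p under 0.05, and none passed. The 83 cytochrome P450 genes had 4 higher and 3 lower and a median of 0.00.

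Eye pigment genes differed in both directions. The pteridine pigment gene se had 5.76, 5.90 and 6.002 in DD, against 5.51, 5.69 and 5.76 in LD. The groups did not overlap, but only just. The difference was 0.22 (SE 0.055, adjusted p = 0.313). The xanthine dehydrogenase gene ry was at 0.22 (adjusted p = 0.402), while car, which acts in trafficking to pigment granules, was at -0.17 (adjusted p = 0.339). Of the 21 genes, 2 were higher and 3 lower at an unadjusted p under 0.05.

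Odorant and gustatory receptor genes, 124 in number, had 1 higher and 15 lower at an unadjusted p under 0.05 and a median of -0.04, but 68 of them had means under the lower quartiles of all arrays. DNA repair genes had 5 of 26 lower and none higher, endoplasmic reticulum folding genes 4 of 31 lower and none higher, and spliceosome genes 6 of 38 lower and none higher. Their medians were -0.08, -0.07 and -0.05. The means of 10 of the 26 DNA repair genes were under the lower quartiles of all arrays, against 2366 of 10843 over all genes. With the body-tissue score in the model the median of the DNA repair list was -0.03. Dad1, a subunit of the enzyme that attaches sugar chains to new proteins, had 7.26, 7.39 and 7.47 in DD, against 7.50, 7.58 and 7.75 in LD. Its groups did not overlap, and the difference was -0.21 (SE 0.053, adjusted p = 0.313). Proteasome genes (26) and replication genes (23) had none at an unadjusted p under 0.05 in either direction. The 73 oxidative phosphorylation genes had 6 higher and 7 lower, with a median of 0.01.

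**Figure D3:**
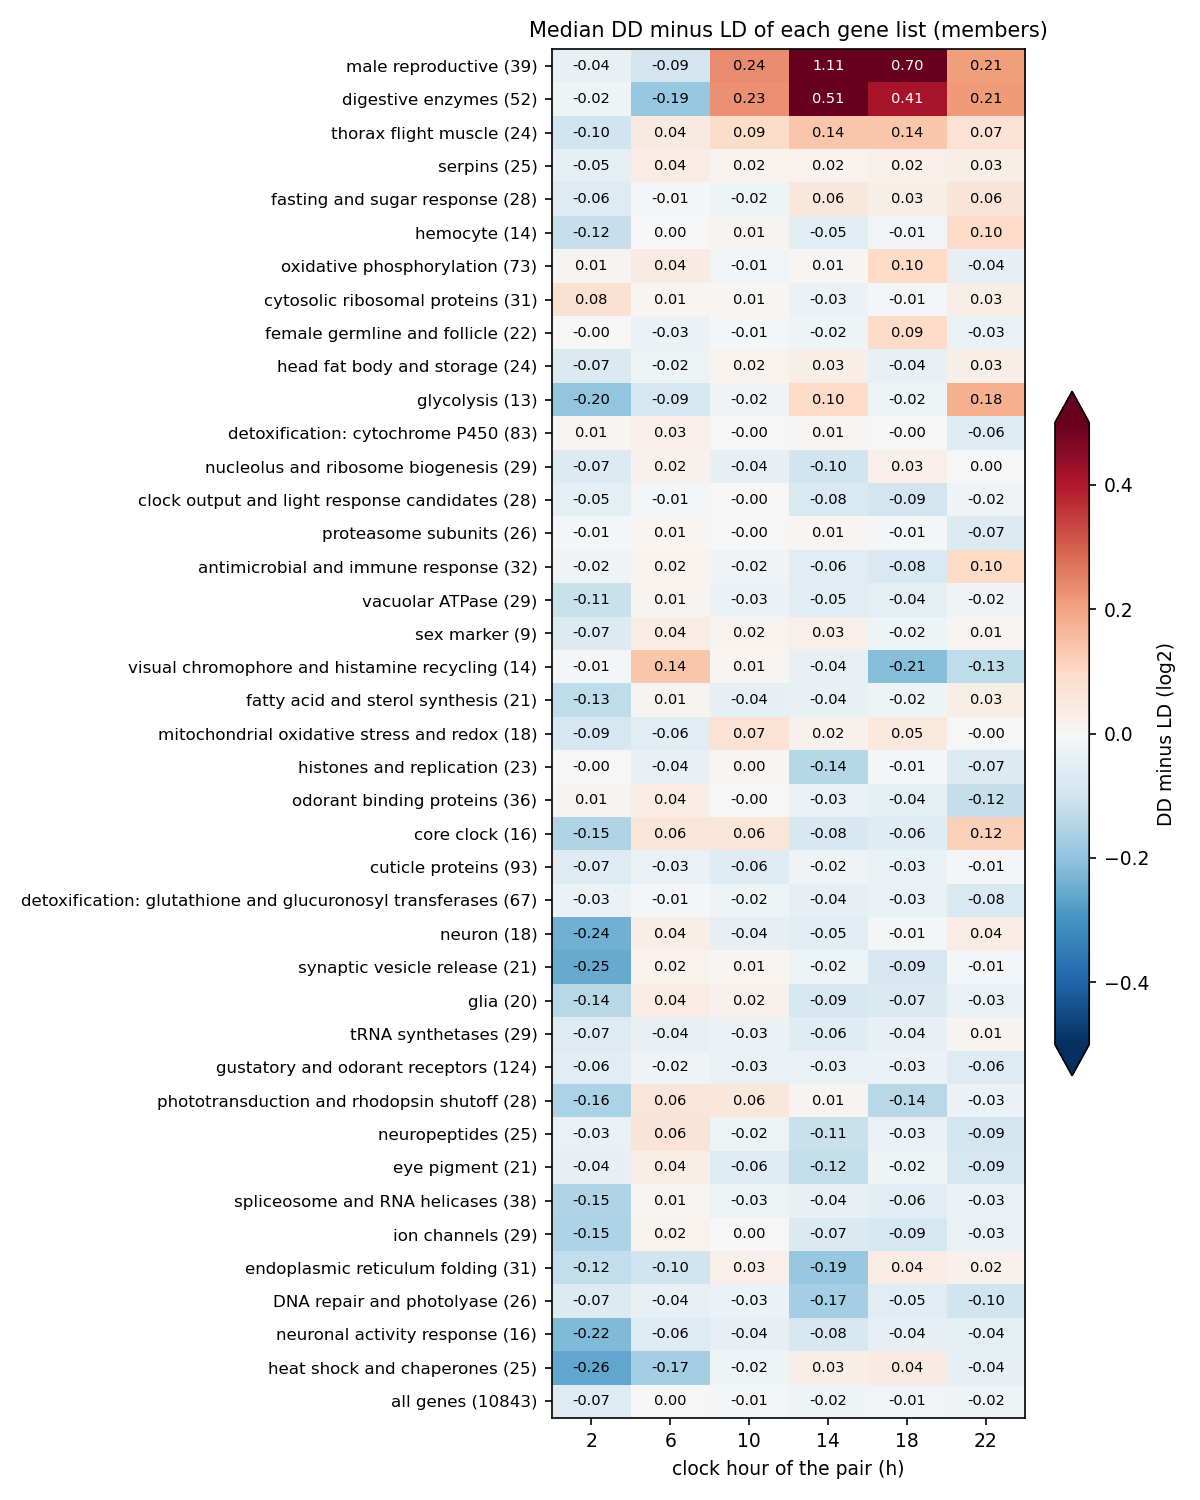
Median DD minus LD (log2, colour and printed value) of 40 gene lists, with the number of genes measured in brackets, at each clock hour of the pairs, and of all genes in the bottom row; the colour scale ends at -0.5 and 0.5. Male reproductive and digestive lists stand at 1.11 and 0.51 at hour 14, and the lists below -0.2 stand mostly at hour 2.

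None of the 40 lists held a gene that passed the threshold, and 38 of them had medians within 0.1 of 0. The 2 exceptions were markers of tissues outside the head. The male reproductive list, which holds seminal fluid and sperm genes, had a median of 0.37 over 39 genes, and 22 of them were higher and none lower at an unadjusted p under 0.05. The median was 0.04 over hours 2, 6 and 10 and 0.68 over hours 14, 18 and 22, and it was 0.22 without hour 14 and -0.73 with a linear trend over the 2 days. The means of 14 of the 39 were under the lower quartiles of all arrays. The digestive enzyme list, mainly proteases and glycosidases of the midgut, had a median of 0.19 over 52 genes, or -0.26 with the linear trend, with 18 higher and 1 lower. The thorax flight muscle list of 24 genes had 8 higher and none lower, with a median of 0.05.

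SP, the sex peptide that males transfer in seminal fluid, had 4.26, 5.97 and 6.67 in DD, against 4.10, 4.63 and 5.57 in LD. The values climbed through the DD day from hour 2 to hour 18, and the later DD arrays lay above all LD arrays. The difference was 0.90 (SE 0.207, adjusted p = 0.299). Act88F, the actin of the indirect flight muscle, had 3.45, 4.75 and 5.39 in DD, against 3.50, 3.65 and 4.13 in LD. It differed by 0.32 over hours 2, 6 and 10 and by 1.35 over hours 14, 18 and 22, with a mean of 0.83 (SE 0.181, adjusted p = 0.299). The sperm tail gene dj, of low values, had a mean of 0.75 (SE 0.189, adjusted p = 0.313). CG15219, for which no role or tissue is given here, had a mean of 0.66 (SE 0.145, adjusted p = 0.299). The amylase gene Amy-d differed by 0.72 (SE 0.230, adjusted p = 0.386), with 2.14 at hour 14 and a mean of 0.43 without that hour.

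The differences of greatest size among all named genes, those of Cyp4g1 and EbpII, had wide errors. EbpII, an ejaculatory bulb gene, differed by 1.44 (SE 0.595, adjusted p = 0.446), with 5.15 at hour 14 and a mean of 0.70 without that hour. Cyp4g1, a P450 gene of the oenocytes under the cuticle, had 4.67, 9.52 and 10.52 in DD, against 4.71, 7.73 and 9.55 in LD. It was low at hour 2 on both days and at hour 14 of the LD day, and its difference of 1.45 (SE 0.637, adjusted p = 0.462) rested mostly on hour 14, where it was 5.80, and was 0.58 without that hour. With the body-tissue score in the model, the differences of EbpII and Cyp4g1 were -0.05 and -0.21. EbpII is in the male reproductive list, from which that score is partly made, so this fit is no independent check of it. Cyp4g1 is not in the lists of the score. It is in the head fat body and storage list, which had a median of 0.00 over 24 genes. Of these, 13 had positive and 11 negative differences. With a linear trend over the 2 days, the differences of SP, Act88F, CG15219, dj and Amy-d were all below 0. The trend overlaps with the order of the days, and SEs were wide, at 0.39 for SP and 0.34 for Act88F. EbpII and Cyp4g1 were named after their values were seen.

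**Figure D4:**
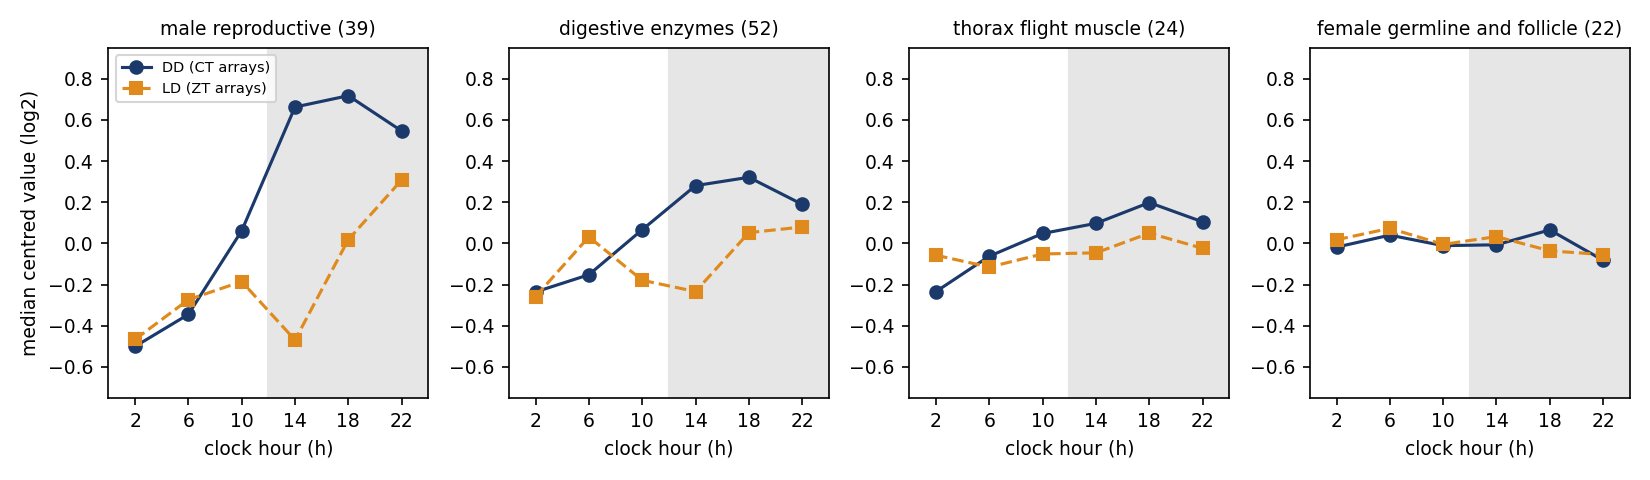
Median over genes of the centred RMA value (log2, vertical axes) against clock hour for 4 marker lists of tissues outside the head, with blue circles for the 6 DD arrays and orange squares for the 6 LD arrays; grey marks the dark part of the LD day. The male reproductive list lies between -0.50 and 0.72 in DD and between -0.47 and 0.31 in LD, and the female germline list stays within 0.1 of 0 on both days.

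These markers also differed among the arrays of 1 day. A score made from the 3 lists lay between -0.32 at CT2 and 0.41 at CT18 in DD, and between -0.26 at ZT2 and 0.12 at ZT22 in LD. The level of the male list ranged from -0.50 to 0.72 in DD and from -0.47 to 0.31 in LD, as the median of values centred per gene. Markers of the female germline did not follow: of 22 genes none had an unadjusted p under 0.05, and the median was 0.00. At hour 14, 119 probe sets were more than 1 log2 unit higher in DD and 2 were more than 1 lower, while at hour 6 the counts were 1 and 17. The part of body tissue or of male flies in these samples in any difference was not tested. In bulk heads, fewer cells of a type and less RNA per cell cannot be told apart.

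Whether the day difference depended on the time of day was tested by comparing hours 14, 18 and 22, dark on both days, with hours 2, 6 and 10, which were lit on the LD day only. A single probe set passed (0.00716%), and 1096 had an unadjusted p under 0.05 (7.85%). It belonged to Acp1, an adult cuticle protein gene. Acp1 had 6.35, 6.97 and 8.03 at CT2, CT6 and CT10, against 5.90, 6.55 and 7.57 at ZT2, ZT6 and ZT10. At CT14, CT18 and CT22 it had 6.35, 6.87 and 6.29, against 7.01, 7.43 and 7.33 at ZT14, ZT18 and ZT22. It was thus higher in DD at each of the first 3 hours, by 0.41 to 0.46, and lower at each of the last 3, by -1.04 to -0.56. The mean differences were 0.44 and -0.75 (SE 0.087 each), and the second minus the first was -1.19 (SE 0.123, limma adjusted p = 0.0196). The call was lost without the arrays of hour 2 (adjusted p = 0.204), hour 6 (0.274), hour 10 (0.057) or hour 14 (0.0677), with the contrast staying between -1.29 and -1.05 in the fits without an hour.

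The genes next in order did not pass, although CG15219, Acp32CD and Sirup did with a trended and robust prior (adjusted p = 0.0369, 0.0478 and 0.0473), and these and CG9624 did without hour 22 (adjusted p = 0.00733 to 0.0436). CG15219 had 0.22 over the early hours and 1.10 over the late ones (adjusted p = 0.103). Acp32CD, a seminal fluid gene of low values, had -0.19 and 0.51 (adjusted p = 0.104), and CG9624 -0.22 and 0.42 (adjusted p = 0.126), also at low values. Sirup, which encodes a factor that assembles mitochondrial complex II, had 0.40 over hours 2, 6 and 10 and -0.29 over hours 14, 18 and 22 (adjusted p = 0.126), the same order as Acp1. The list of 93 other cuticle protein genes had a median of -0.03 over the early hours and -0.02 over the late ones.

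**Figure D5:**
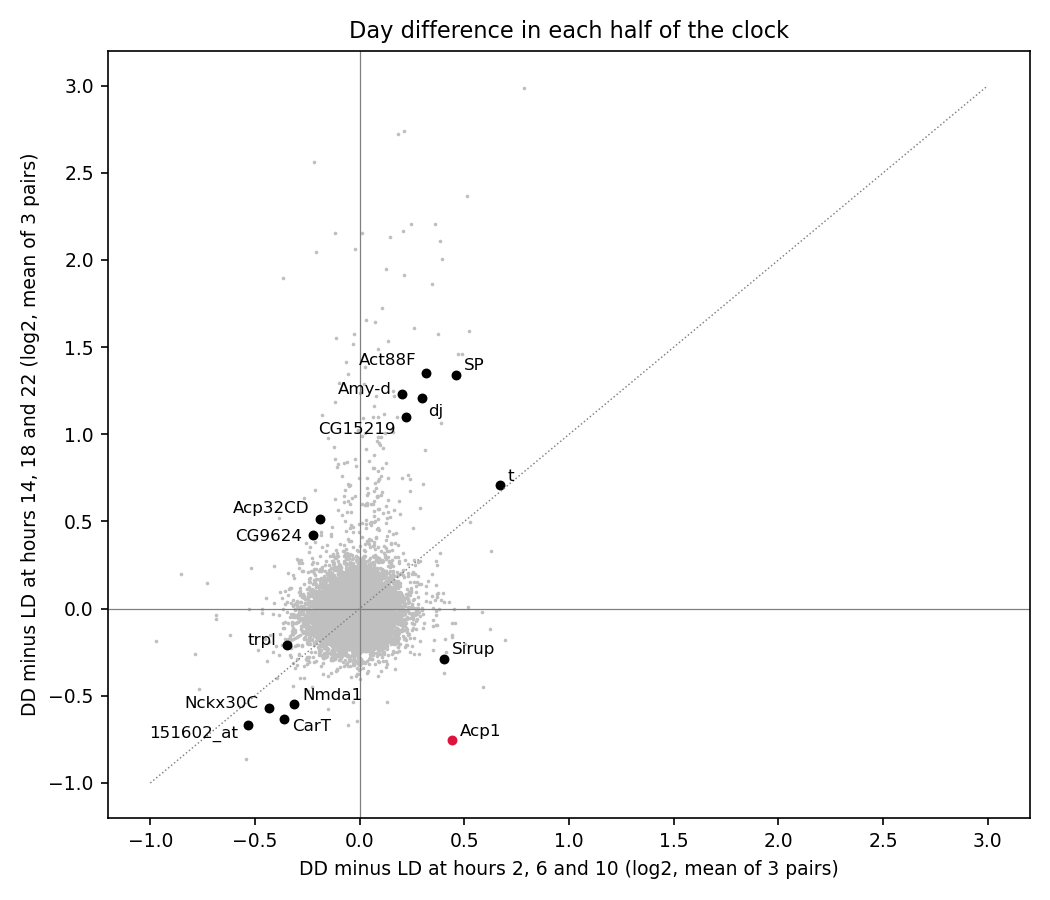
DD minus LD (log2, mean of 3 pairs) at hours 2, 6 and 10 (horizontal axis) against hours 14, 18 and 22 (vertical axis) for every probe set; the dotted line marks equal differences. Acp1 (red) is the only point that passed the test of the difference between the axes, at 0.44 and -0.75; Nckx30C, CarT, 151602_at and t lie near the dotted line, and SP, dj, Amy-d and Act88F stand above 1 on the vertical axis and below 0.5 on the horizontal one.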

How the data were processed

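RNA of 12 head samples was measured on 1 array each. The deposited values are on the log2 scale and were made by the authors with RMA, as the submitters' processing notes say. That method corrects background, normalizes arrays by quantiles and summarises probes. Neither its version nor which arrays entered it was given in the sources used here. The number of arrays limits the precision.

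Of 14010 probe sets, 44 controls were left out. A gene symbol was given for 12442 of the 13966 tested, several for 327 and none for 1197; the last 2 kinds were tested but not named as genes. A gene with several probe sets (1209 of 10843 genes) is represented by the one with the highest mean. Names come from the platform annotation and roles from general knowledge.

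DD minus LD was fitted with limma 3.58.1 in R 4.3.3, with the 6 clock hours as a block and 5 residual degrees of freedom. The dependence on the time of day was fitted with 4. Benjamini-Hochberg adjustment ran over all probe sets, with a threshold of 0.05, and tests were two-sided. Scripts were tested on simulated data. None of the 66 array pairs was identical, and correlations lay between 0.985 and 0.996.

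The rule for naming took up to 15 genes per direction past the threshold. Where fewer than 10 passed, it took the 10 smallest p-values per direction. It added the 5 smallest p-values of the time-of-day test, the 3 smallest p-values of each of 40 gene lists, and per, tim, Clk, cry and y. Genes outside it are marked in the text. The comparison, the rule and the lists were chosen with earlier results of these data known. The alternatives were other blocks, scalings, filters, priors, array weights, a body-tissue covariate and leaving out both arrays of an hour. The covariate is the mean of the centred medians of the male reproductive, digestive and flight muscle lists. It overlaps in part with the day, so fits with it cannot fully separate the score from the day difference. No sequences were printed, as none were used here.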

Additional observations from a re-analysis of the deposited data

Results flagged for a closer look

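Among the genes named, 144 sets of 6 values, each the DD or the LD arrays of 1 gene, score or array median, were searched for an array far from the other 5, and 8 sets held one. Chance gives about 1 in 20, and 8 of 144 is near that share, so the arrays below are given as values only. The transcription factor gene sr had 2: its CT2 value of 4.69 lay under the other DD values (5.01 to 5.06), and its ZT2 value of 5.39 lay over the other LD values (5.14 to 5.20), so that hour 2 gave most of its difference. CT2 also held the highest DD value of CarT, 2.61, against 2.27 to 2.38 for the others. The other DD arrays that stood apart were CT10 for Itpr, at 2.68 against 2.27 to 2.36, CT18 for RpLP2, at 10.05 against 10.32 to 10.47, and CT22 for AttD, at 3.60 against 3.84 to 3.90. Among LD arrays, ZT14 held a low value of tra, 3.33 against 3.50 to 3.58, and ZT22 a low value of Cpn, 7.002 against 7.30 to 7.46. The cuticle protein gene Acp1 stood out because its DD minus LD difference was not the same over the day: the contrast of hours 14, 18 and 22 with hours 2, 6 and 10 was -1.19 (limma adjusted p = 0.0196).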

How the results depend on the processing

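The count of 1 probe set, lower in DD, was also 1 with no replicate block, with cosine and sine terms, with arrays centred on their medians and with array weights. It was 0 with a linear trend over collection hours, with quantile normalization run again, with only probe sets above the median mean level (which leaves out 151602_at) and with the body-tissue score as covariate, and 2 with a trended and robust prior. Without both arrays of 1 hour it lay between 0 and 2, being 0 without hour 2, 6 or 18 and 2 without hour 10. For the dependence on the time of day the count of 1 became 4 with the trended and robust prior and 2 with the body-tissue score, and lay between 0 and 76 without 1 hour, being 0 without hour 2, 6 or 14 and 76 without hour 22. The call of 151602_at was lost with the trend (-0.42, adjusted p = 0.41) and with the score (-0.51, adjusted p = 0.253). Clock hours pair the arrays only weakly: deviations of same-hour arrays correlated between -0.34 and 0.50, and 3 of 6 DD arrays correlated best with the LD array of their hour. The linear trend, which overlaps with the order of the days, turned the sign of 19 of 70 differences. They became 0.38 for trpl, 0.0416 for Cpn, 0.0888 for y, 0.10 for tim and 0.087 for cry, and -0.78 for Act88F, -0.89 for CG15219, -0.0152 for CG17470, -1.29 for SP, -1.03 for dj, -0.22 for Obp56g, -0.63 for MtnC, -0.77 for Amy-d, -4.15 for EbpII, -3.72 for Cyp4g1, -0.0589 for Clk, -0.56 for Acp32CD, -0.36 for CG9624 and -0.15 for Sirup. The body-tissue score turned EbpII (-0.0537), Cyp4g1 (-0.21), Acp32CD (-0.0925), CG9624 (-0.0983) and Acp1 (0.17). EbpII belongs to a list from which the score is made. Leaving out an hour turned Sirup (without hour 2 or 6, range -0.0376 to 0.139), cry (without hour 6, range -0.075 to 0.0118) and Acp1 (without hour 22, range -0.278 to 0.0196). The cause of these changes was not tested. The other named differences kept their sign under each alternative run. List medians were less firm. With the linear trend 17 of 40 moved by more than the SD of their 6 pairs and 12 turned sign, among them male reproductive (-0.73), digestive enzymes (-0.26) and thorax flight muscle (-0.23). Signs turned for 11 lists with arrays centred on their medians and 6 with quantile normalization run again, all within 0.02 of 0 before. The body-tissue score, itself made from 3 of the lists, turned 11, and leaving out 1 hour turned 2 to 7.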

Other observations

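Further gene groups gave small values of both signs, and none of the genes named here passed the threshold of limma. Of 32 antimicrobial and immune genes, 2 were higher and 2 lower in DD at an unadjusted p under 0.05. SPE, the protease that activates the Toll ligand, had 8.10, 8.13 and 8.24 in DD (lowest, median and highest), against 7.87, 7.99 and 8.08 in LD. Its groups did not overlap, and the difference was 0.17 (SE 0.047, adjusted p = 0.333). The antimicrobial peptide gene Def differed by 0.31 (SE 0.114, adjusted p = 0.412) and AttD by -0.16 (SE 0.061, adjusted p = 0.428). Odorant binding proteins split in the same way, with 4 of 36 higher and 5 lower. Obp99b was at -0.20 and Obp56d at -0.19, each lower in DD at all 6 hours, and Obp56g at 0.21. Among 31 cytosolic ribosomal protein genes, 3 were higher and 4 lower, with RpL40 at -0.15 and RpLP2 at 0.15. LysRS, a tRNA synthetase gene, was at -0.20 (SE 0.047, adjusted p = 0.302) and lower in DD at all 6 hours, and the desaturase gene Desat1 at -0.16 (SE 0.048, adjusted p = 0.354). The metallothionein gene MtnC, at low values, differed by 0.20 over hours 2, 6 and 10 and by 0.75 over hours 14, 18 and 22. Of 9 sex markers 1 was lower, tra at -0.16 (SE 0.054, adjusted p = 0.402), and the list's median was -0.01.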
